A study of Mus musculus with 9 samples.

Results

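*Nos2*, the gene of inducible nitric oxide synthase, and genes that supply or draw on its substrate arginine were described in 9 primary mammary tumours of mice. The group held 7 genes, of 14108 in the count tables, and the 6 described are *Nos2*, *Ass1*, *Asl*, *Odc1*, *Slc7a1* and *Slc7a2*. They were chosen by their function around *Nos2* with their measured levels in these tumours known. All 6 were counted in every tumour and passed the filter on low counts. The differences between models are therefore given for them as values and standard errors, with no test.

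The tumours came from 3 models with 3 tumours each. HR1 stands for LB-mHR1, a mouse mammary cancer line that does not metastasise, taken from a mammary tumour of a transgenic mouse that expressed *PIK3CA* H1047R, an activating allele of a PI3-kinase subunit, under the CAG promoter. LM1 and LM9 are lines from lung metastases of HR1 cells in which a doxycycline-induced *piggyBac* transposon had been mobilised, so all 3 models share the transgene. Each LM model is a single line, and what holds for LM1 or LM9 cannot be extended from these samples to other metastases. For every tumour, 250000 cells in Matrigel and PBS went into the mammary fat pad of female NOD/SCID mice (strain label NOD.CB17-Prkcd<scid>/J) aged 4 to 8 weeks. This host lacks mature T and B cells and keeps macrophages. Tumours were taken before 1500 mm3, GFP+ cells were sorted from them, and mRNA was sequenced.

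Nitric oxide synthases turn arginine into citrulline and nitric oxide, and the inducible enzyme NOS2 makes large amounts once its gene is transcribed, which NF-kB and the interferon factor IRF1 are known to drive in macrophages and in many tumour cells. Arginine enters the cell through the cationic amino acid transporters encoded by *Slc7a1* and *Slc7a2*. Citrulline is recycled to arginine by argininosuccinate synthase (*Ass1*) and argininosuccinate lyase (*Asl*). Ornithine, which is also made from arginine, is committed by ornithine decarboxylase (*Odc1*) to polyamines, small cations needed for growth.

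Total counts ran from 32393958 to 46681945 per tumour. Levels are given as CPM, read counts divided by library size after TMM scaling (a normalisation that sets most genes level between libraries), and differences as log2 fold changes from one edgeR fit of all 9 tumours. The tumour labelled HR1 replicate 1 stood apart. Its *Nfib* level was 1343 CPM, against 23.9 and 18.3 CPM in HR1 replicates 2 and 3, and its log2 CPM correlated with theirs at 0.892 and 0.879, against 0.965 between those 2. It went against its group on the gene that the study had followed, and the log2 fold changes against HR1 are also given without it. The study's labels do not say that tumours of a model came from separate cultures, so the errors measure the spread between these tumours. The fit shares 1 estimate of that spread over the 3 models, so the errors of LM9 against LM1 also carry the spread of HR1.

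The promoters of *Ass1*, *Odc1* and *Slc7a1* are shown because, of the 6 genes, these 3 were found in the RefSeq promoter table of GRCm38.p6, and they cover uptake, recycling and the polyamine branch. *Nos2*, *Asl* and *Slc7a2* are named only. Each line holds the 250 bases before the start annotated in RefSeq. The gene spans given further below come from GENCODE, and those of *Ass1* and *Odc1* begin inside these windows. Capitals mark the MYC E-box CACGTG and the NFI motif TTGGC, read on both strands, so that the NFI motif may appear as its complement.

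Ass1 (chr2:31470020-31470269, plus strand): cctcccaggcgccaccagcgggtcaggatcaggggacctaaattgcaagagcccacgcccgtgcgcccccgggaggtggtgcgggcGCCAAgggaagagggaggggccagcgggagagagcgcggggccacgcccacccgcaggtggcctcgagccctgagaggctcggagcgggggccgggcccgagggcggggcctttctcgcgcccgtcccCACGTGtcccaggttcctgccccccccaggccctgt
Odc1 (chr12:17544623-17544872, plus strand): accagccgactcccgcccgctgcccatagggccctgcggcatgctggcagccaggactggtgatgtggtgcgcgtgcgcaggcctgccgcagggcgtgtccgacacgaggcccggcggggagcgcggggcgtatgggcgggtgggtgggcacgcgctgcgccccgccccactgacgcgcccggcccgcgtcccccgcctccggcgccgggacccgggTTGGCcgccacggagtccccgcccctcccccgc
Slc7a1 (chr5:148399905-148400154, minus strand): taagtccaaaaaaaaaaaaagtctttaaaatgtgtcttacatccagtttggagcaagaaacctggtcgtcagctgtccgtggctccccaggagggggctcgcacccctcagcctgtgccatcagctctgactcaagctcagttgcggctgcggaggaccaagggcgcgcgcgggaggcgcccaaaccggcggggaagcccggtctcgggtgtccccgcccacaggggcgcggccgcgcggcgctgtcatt

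Position is counted back from the start. The *Ass1* window held 1 E-box at -36 and 1 NFI motif at -164, and the *Odc1* window held 1 NFI motif at -33. CACGTG was present in 6.02% and TTGGC in 41.5% of 32851 promoter windows of the same length. The hypoxia response core ACGTG, which 16.6% of windows held, was found in *Ass1* on both strands inside the E-box. The windows of these 3 genes held none of the GAS letters TTCNNNGAA (7.02% of windows), the CRE letters TGACGTCA (1.55%) or the NF-kB consensus (7.25%). At a second annotated start of *Slc7a1* (chr5:148392816-148393065) the window held 1 GAS match at -146. Bases G and C made up 75.6% of the *Ass1*, 80.0% of the *Odc1* and 62.4% of the *Slc7a1* window. A match is a run of letters and was not tested as a binding site.

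*Nos2* (chromosome 11, 78920787 to 78960254, plus strand, mm10) was the most different of the 6 between models. In HR1 tumours its level was 0.698, 1.46 and 3.50 CPM, from 21, 65 and 136 reads. LM1 tumours had 11.6, 22.4 and 20.4 CPM. The level in LM9 tumours was 171, 143 and 139 CPM, from 6197 to 7957 reads. Every LM1 tumour lay above every HR1 tumour, and every LM9 tumour above every LM1 tumour, so the order HR1, LM1, LM9 held without overlap. The means were 1.89 ± 1.45, 18.2 ± 5.75 and 151 ± 17.2 CPM (SD, n = 3).

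The fitted log2 fold change of *Nos2* was 3.25 ± 0.51 (SE) for LM1 against HR1, or 9.52-fold. For LM9 against HR1 it was 6.31 ± 0.58, or 79.3-fold, and for LM9 against LM1 3.06 ± 0.49, or 8.32-fold. Without the tumour labelled HR1 replicate 1 these were 2.89, 5.94 and 3.05. Of the single tumours, HR1 replicate 3 moved both values against HR1 most. Without it they were 4.03 for LM1 and 7.09 for LM9. By size, the difference ranked 406 of 14086 genes from the top in LM1 against HR1, 67 in LM9 against HR1 and 127 in LM9 against LM1. In bulk RNA, a change in how many cells express *Nos2* and a change in RNA per cell cannot be told apart.

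**Figure D1:**
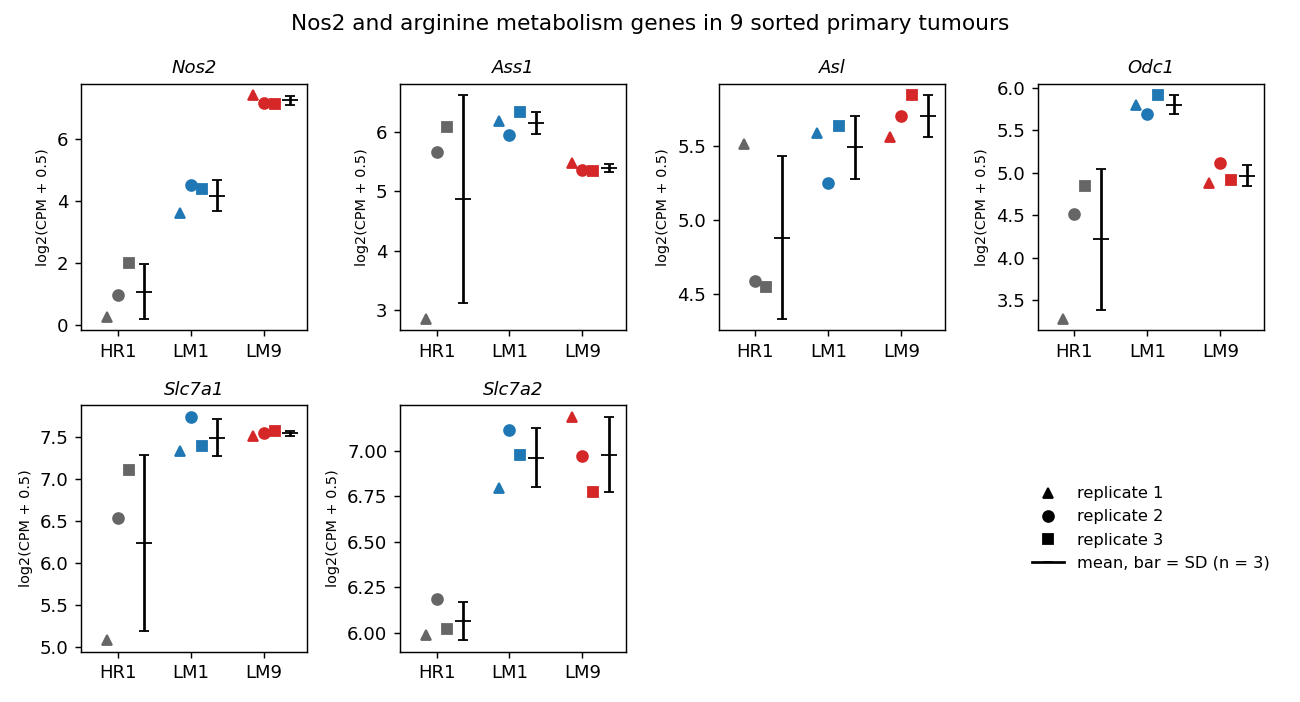
Levels of the 6 genes in each tumour, as log2(CPM + 0.5), for HR1, LM1 and LM9 (each panel has its own axis, points are tumours, and black bars are mean and SD, n = 3). *Nos2* steps up without overlap from HR1 to LM1 to LM9, and the triangle of HR1 replicate 1 is the lowest point in every panel but that of *Asl*.

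Per kilobase of exon, the place of *Nos2* among the 6 genes moved from the bottom to the top. Its mean level was 0.428 RPKM in HR1, 4.11 in LM1 and 34.2 in LM9. In HR1 it was the lowest of the 6, and 15.4% of all genes with a known exon length lay below *Nos2*. In LM9 *Nos2* was the highest of the 6, ahead of *Ass1* at 17.1 and *Slc7a1* at 16.2 RPKM, and 87.7% of genes lay below it. *Ass1* was the highest of the 6 in HR1 and LM1, at 17.1 and 29.3 RPKM.

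Of the other nitric oxide synthases, *Nos3*, the endothelial form, did not exceed 0.585 CPM in any tumour, and *Nos1*, the neuronal form, is not among the genes counted.

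Both arginine transporters were higher in the LM tumours than in HR1. *Slc7a2* (chromosome 8, 40862396 to 40922308, plus strand) encodes CAT2, the transporter that macrophages induce together with NOS2. Its level was 62.8, 72.2 and 64.4 CPM in HR1, 111, 138 and 126 in LM1, and 145, 125 and 109 in LM9. The HR1 tumours lay below all LM tumours and close together, while LM1 and LM9 overlapped. The log2 fold change was 0.91 ± 0.15 (SE) for LM1 and 0.93 ± 0.15 for LM9 against HR1, and 0.88 and 0.89 without HR1 replicate 1. Of the 9135 exon bases of *Slc7a2*, 635 are overlapped on the opposite strand by *Gm26584*, and as the strand setting of the counting is not known, reads of both genes there may not be told apart. Its value for LM9 against LM1 was 0.02 ± 0.15, and it changed sign across the 17 alternative settings, from -0.09 to 0.12.

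*Slc7a1* (chromosome 5, 148327410 to 148399904, minus strand) encodes CAT1, the broadly expressed arginine transporter. HR1 tumours had 33.3, 92.7 and 137 CPM, LM1 tumours 161, 214 and 168, and LM9 tumours 182, 188 and 190. All HR1 values lay below all LM values, but HR1 spread over 4-fold, from replicate 1 at the bottom to replicate 3. The log2 fold change against HR1 was 1.05 ± 0.41 for LM1 and 1.09 ± 0.41 for LM9. It fell to 0.67 and 0.70 without HR1 replicate 1. LM9 and LM1 overlapped, with a log2 fold change of 0.04 ± 0.41 that ranged from -0.04 to 0.19 across alternatives. Per kilobase the means of both transporters were 7.61 and 7.28 RPKM in HR1 for *Slc7a1* and *Slc7a2*, and 16.2 and 13.8 in LM9.

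The citrulline recycling genes differed less between models than *Nos2*. *Ass1* (chromosome 2, 31470207 to 31520672, plus strand), the rate-limiting step of recycling, had 6.75, 50.0 and 67.2 CPM in HR1. Its level was 71.6, 61.0 and 79.6 CPM in LM1 and 43.7, 40.5 and 39.9 CPM in LM9. LM9 lay below LM1 in every tumour and between the HR1 replicates, and the tumour labelled HR1 replicate 1 was the lowest of all 9. The log2 fold change of LM9 against HR1 was -0.000463 ± 0.61 with that tumour and -0.50 without it. For LM1 against HR1 it was 0.77 ± 0.61 and 0.28, and for LM9 against LM1 -0.77 ± 0.61 and -0.78. Across alternatives, the value for LM9 against HR1 turned both ways, from -0.50 to 0.54, the latter without HR1 replicate 3. Of the 50-base windows of *Ass1* transcripts, 38.6% also occur in another annotated gene, a pseudogene, so part of its reads could have been counted elsewhere.

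*Asl* (chromosome 5, 130011258 to 130029247, minus strand), which completes the recycling to arginine, had 45.3, 23.5 and 22.9 CPM in HR1. LM1 tumours had 47.7, 37.6 and 49.4 CPM, and LM9 tumours 46.9, 51.7 and 57.2. Here HR1 replicate 1 was the high tumour of its group and lay within the LM1 range, while all LM9 tumours lay above HR1. The log2 fold change was 0.56 ± 0.27 for LM1 and 0.77 ± 0.27 for LM9 against HR1, and 0.96 and 1.16 without HR1 replicate 1. The LM models differed by 0.21 ± 0.26, with overlap.

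On the polyamine branch, *Odc1* (chromosome 12, 17544794 to 17551505, plus strand) was highest in LM1. HR1 tumours had 9.21, 22.4 and 28.3 CPM, LM1 tumours 55.3, 51.3 and 60.0, and LM9 tumours 28.9, 34.2 and 29.6. No group overlapped another, although the lowest LM9 tumour lay just above the highest HR1 tumour. The log2 fold change was 1.47 ± 0.34 for LM1 and 0.63 ± 0.34 for LM9 against HR1, and 1.14 and 0.29 without HR1 replicate 1. For LM9 against LM1 it was -0.85 ± 0.34. *Odc1* and *Ass1* were the 2 of the 6 genes whose LM9 tumours all lay below the LM1 tumours, the reverse of *Nos2*. Of the 50-base windows of *Odc1* transcripts, 24.3% recur in other annotated genes. *Otc*, which would join ornithine back to citrulline, is not among the genes counted.

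**Figure D2:**
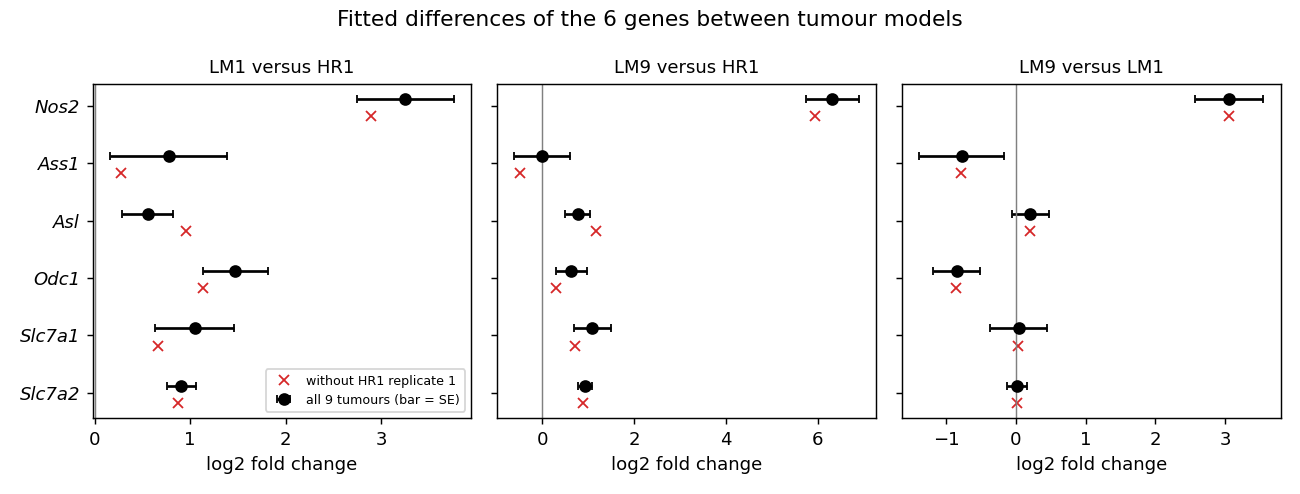
Fitted log2 fold changes of the 6 genes in the 3 comparisons, each panel with its own axis. Black points use all 9 tumours with SE bars and red crosses leave out the tumour labelled HR1 replicate 1. *Nos2* lies farthest to the right in each panel, and the crosses sit to the left of the points in both comparisons with HR1 for every gene but *Asl*.

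Around them, 53 other genes of arginine, nitric oxide and polyamine metabolism and 24 genes of the *Nos2* regulatory pathway were tested. These lists too were chosen with earlier results of these data known, so their shares are not an independent test. A gene was called at an edgeR adjusted p below 0.05. In LM1 against HR1, 35.5% of all genes were called, 16.7% higher and 18.7% lower, and 19 of the 53 (35.8%), 8 higher and 11 lower. In LM9 against HR1, 42.3% of all genes were called, 20.4% higher and 21.9% lower, and 29 of the 53 (54.7%), 10 higher and 19 lower. In LM9 against LM1, 22% of all genes were called, 11.5% higher and 10.6% lower, and 10 of the 53 (18.9%), 3 higher and 7 lower. Their median log2 fold changes were -0.08, -0.27 and -0.02, beside -0.04, -0.05 and 0.00462 over all genes. Without HR1 replicate 1 the counts became 29, 35 and 21, or 54.7%, 66% and 39.6%, where 52.8%, 55.7% and 45.5% of all genes were called. Adjusted p-values are those of the edgeR quasi-likelihood F-test, corrected by the Benjamini-Hochberg procedure over 14086 genes.

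Of 13 genes of nitric oxide synthesis and signalling, those that make or protect the activity of NOS moved in different directions. *Gch1*, whose enzyme GTP cyclohydrolase 1 limits the supply of the NOS cofactor tetrahydrobiopterin, had 47.1, 12.2 and 10.1 CPM in HR1, 56.0, 54.3 and 55.4 in LM1, and 125, 152 and 153 in LM9. It rose in LM9 against HR1 by 2.63 ± 0.53 on the log2 scale (edgeR adjusted p = 0.00532), and by 3.69 without HR1 replicate 1. The values for LM1 against HR1 (1.26) and LM9 against LM1 (1.37) did not pass, each at an edgeR adjusted p of 0.085, but without HR1 replicate 1 they were 2.32 and 1.37 and both passed (edgeR adjusted p = 3.38e-06 and 4.09e-05). The next enzymes of cofactor synthesis were lower. *Pts* fell by 1.10 in LM1 against HR1 (edgeR adjusted p = 0.0099) and *Spr* fell by 0.78 in LM9 against HR1 (edgeR adjusted p = 0.0067). These values were -0.83 and -0.76 without HR1 replicate 1. *Gchfr*, whose protein binds and restrains GTP cyclohydrolase 1, fell in LM1 against HR1 by 0.87 (edgeR adjusted p = 0.0144), a call lost without LM1 replicate 2. Its value was -0.95 without HR1 replicate 1.

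The 2 genes for dimethylarginine hydrolases, which clear methylated arginines that inhibit NOS, went opposite ways. *Ddah1* had 29.4, 23.2 and 30.1 CPM in HR1, 72.4, 86.0 and 76.0 in LM1, and 114, 118 and 112 in LM9. It rose by 1.5 ± 0.14 in LM1 (edgeR adjusted p = 0.000221) and by 2.05 ± 0.14 in LM9 against HR1 (edgeR adjusted p = 3.95e-05). The step from LM1 to LM9, 0.55 ± 0.14, passed as well (edgeR adjusted p = 0.023) but was lost in 6 of 17 alternatives. *Ddah2* had 126 to 168 CPM in HR1 and 26.3 to 33.0 CPM in the 6 LM tumours. It fell by 2.30 in LM1 and by 2.31 in LM9 against HR1 (edgeR adjusted p = 0.000101 and 5.1e-05). Leaving out HR1 replicate 1 gave 1.56 and 2.11 for *Ddah1* and -2.37 and -2.39 for *Ddah2*. Per kilobase of exon, *Ddah1* and *Ddah2* had means of 6.93 and 89.1 RPKM in HR1, 19.6 and 18.1 in LM1 and 28.8 and 17.9 in LM9.

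Downstream of nitric oxide, *Prkg1*, the cGMP-dependent kinase, was at 8.71, 1.76 and 1.36 CPM in HR1 and 1.30 to 2.63 CPM in LM1. It had at most 1 read in each LM9 tumour, which is at least 59.0-fold lower than HR1 and at least 31.6-fold lower than LM1 against a floor of 3 reads per library (edgeR adjusted p = 0.000993 and 0.00407). Without HR1 replicate 1 the first bound was 23.3-fold. Of the 13 genes, 1 rose and 4 fell in LM1 against HR1 (38.5% against 35.5% of all genes), 2 rose and 4 fell in LM9 against HR1 (46.2% against 42.3%), and 1 rose and 2 fell in LM9 against LM1 (23.1% against 22%). With HR1 replicate 1 left out, 4 rose and 4 fell in LM1 against HR1 (61.5%, beside 52.8% of all genes), 3 rose and 4 fell in LM9 against HR1 (53.8%, beside 55.7%), and 2 rose and 2 fell in LM9 against LM1 (30.8%, beside 45.5%).

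**Figure D3:**
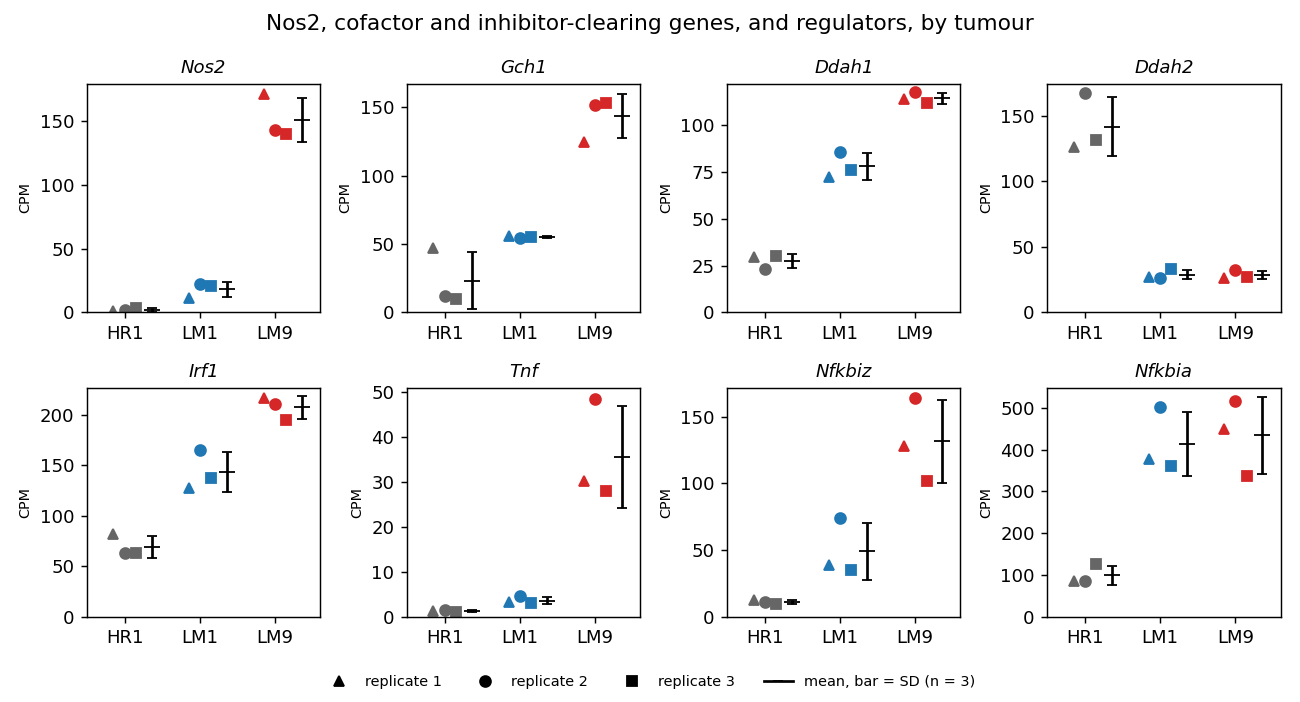
CPM of *Nos2*, cofactor gene *Gch1*, *Ddah1*, *Ddah2* and 4 regulators in each tumour, on linear axes from 0 (points are tumours, bars mean and SD, n = 3). *Ddah1*, *Irf1*, *Tnf* and *Nfkbiz* step up from HR1 to LM1 to LM9 without overlap, while *Ddah2* is at 126 CPM or more only in HR1.

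Among 22 other genes of arginine transport and breakdown, 8 were called in LM1 against HR1 (5 higher), 10 in LM9 against HR1 (5 higher) and 1 in LM9 against LM1. These shares, 36.4%, 45.5% and 4.55%, stand beside 35.5%, 42.3% and 22% of all genes. With HR1 replicate 1 left out, 13 (6 higher, 7 lower), 15 (6 higher, 9 lower) and 8 (2 higher, 6 lower) were called. These shares were 59.1%, 68.2% and 36.4%, beside 52.8%, 55.7% and 45.5% of all genes. The peptidylarginine deiminases, which convert arginine within proteins to citrulline and do not use the free amino acid, went both ways. *Padi1* had 1.22 to 1.83 CPM in HR1, 25.9 to 28.1 in LM1 and 22.7 to 38.7 in LM9, a log2 fold change of 4.09 ± 0.26 and 4.32 ± 0.27 (edgeR adjusted p = 6.48e-05 and 2.55e-05). *Padi3* had 6.69 to 39.9 CPM in HR1, 206 to 229 in LM1 and 418 to 473 in LM9, a log2 fold change of 3.46 ± 0.58 and 4.49 ± 0.61 (edgeR adjusted p = 0.00261 and 0.000881). *Padi2* fell by 2.70 in LM1 against HR1 (edgeR adjusted p = 0.0204, lost in 7 of 17 alternatives) and *Padi4* fell by 3.96 in LM9 against HR1 (edgeR adjusted p = 0.0404, lost in 11 of 17). Without HR1 replicate 1 the values were 4.18 and 4.40 for *Padi1*, 3.22 and 4.24 for *Padi3*, -3.20 for *Padi2* and -4.53 for *Padi4*. *Pycr1*, which makes proline, rose by 0.89 in LM1 and 0.80 in LM9 (edgeR adjusted p = 0.00152 and 0.00209). *Slc7a7*, the light chain of an arginine exporter, fell by 1.09 in LM1 against HR1 (edgeR adjusted p = 0.00265). *Slc7a6*, another transporter gene of this list, rose by 1.12 in LM1 and 0.91 in LM9 against HR1 (edgeR adjusted p = 0.00999 and 0.0197). Its LM9 call was lost in 4 of 17 alternatives, and its values were 1.44 and 1.23 without HR1 replicate 1. *Gamt*, which uses an arginine derivative to make creatine, fell by 1.57 in LM9 against HR1 and by 1.02 in LM9 against LM1 (edgeR adjusted p = 0.00251 and 0.0274). The latter call was lost in 6 of 17 alternatives. *Pycr1* was at 0.89 and 0.79, *Slc7a7* at -1.19 and *Gamt*, in LM9 against HR1, at -1.21 without HR1 replicate 1.

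Of 18 polyamine genes beyond *Odc1*, 6 were called in LM1 against HR1 (2 higher, 4 lower) and 13 in LM9 against HR1 (3 higher, 10 lower), with a median log2 fold change of -0.29 and -0.67. In LM9 against LM1, 6 were called (2 higher, 4 lower). The shares were 33.3%, 72.2% and 33.3%, beside 35.5%, 42.3% and 22% of all genes, and without HR1 replicate 1 44.4%, 72.2% and 50%, beside 52.8%, 55.7% and 45.5%. *Srm*, spermidine synthase, followed the pattern of *Odc1*, with 116 to 148 CPM in HR1, 371 to 409 in LM1 and 175 to 237 in LM9. Its log2 fold change was 1.57 ± 0.16 for LM1 against HR1 and -0.99 ± 0.16 for LM9 against LM1 (edgeR adjusted p = 0.000301 and 0.00436). *Sat1*, which acetylates polyamines for breakdown or export, went the other way, from 68.6 to 77.1 CPM in HR1 to 44.8 to 55.8 in LM1 and 106 to 134 in LM9. LM9 exceeded LM1 by 1.21 ± 0.14 on the log2 scale (edgeR adjusted p = 0.00141). *Smox*, spermine oxidase, fell by 2.49 in LM1 against HR1 (edgeR adjusted p = 0.00111) and was 1.51 higher in LM9 than in LM1 (edgeR adjusted p = 0.0151, lost in 4 of 17 alternatives). In LM1 against HR1, *Srm* was at 1.66 and *Smox* at -2.80 without HR1 replicate 1.

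The list also holds regulators of ornithine decarboxylase and the translation factors that need spermidine. *Azin2*, an antizyme inhibitor, fell by 2.31 in LM1 and 1.54 in LM9 against HR1 (edgeR adjusted p = 0.000604 and 0.00286). *Azin1*, the other antizyme inhibitor, was not called, at -0.01 in LM1 and -0.00487 in LM9 against HR1, but without HR1 replicate 1 it was at -0.29 in both and was called lower (edgeR adjusted p = 0.0439 and 0.0443). *Oaz1*, the antizyme that sends ornithine decarboxylase to the proteasome, fell by 1.30 in LM9 against HR1 (edgeR adjusted p = 0.00693), with 122, 64.4 and 56.5 CPM in HR1 and 30.2 to 36.6 CPM in LM9. Its value in LM1 against HR1, -0.65, did not pass (edgeR adjusted p = 0.0992). *Eif5a*, the translation factor that carries the spermidine-derived residue hypusine, fell by 0.79 in LM9 against LM1 (edgeR adjusted p = 0.014), a call lost in 3 of 17 alternatives. Its paralogue *Eif5a2* fell by 1.42 in LM9 against HR1 (edgeR adjusted p = 0.00929). Without HR1 replicate 1 the values against HR1 were -1.94 and -1.17 for *Azin2*, -0.88 for *Oaz1* and -1.41 for *Eif5a2*. Of *Oaz1* transcript windows, 21% are shared with other annotated genes.

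**Figure D4:**
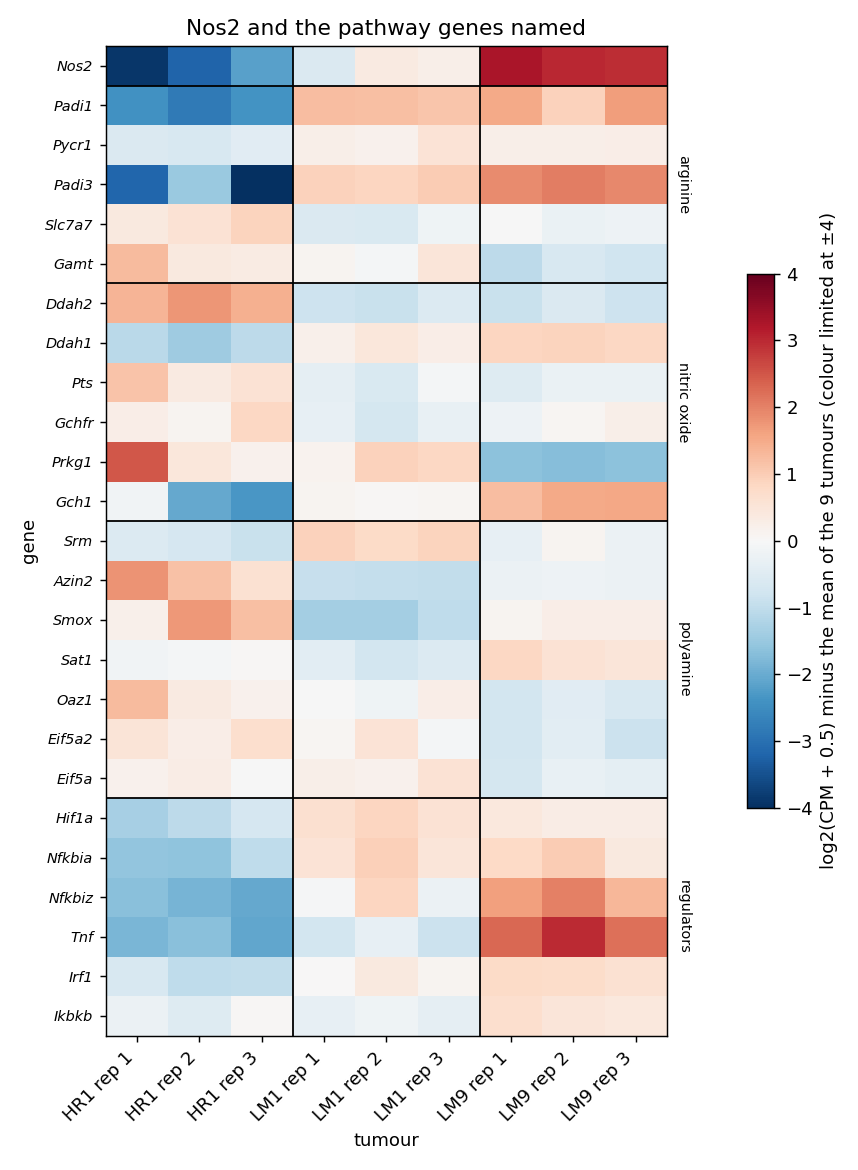
*Nos2* and the named arginine, nitric oxide, polyamine and regulator genes in the 9 tumours, coloured by log2(CPM + 0.5) minus the mean of the 9 tumours (limited at 4 on either side). *Tnf*, *Nfkbiz* and *Irf1* turn from blue in HR1 to red in LM9, the regulators called lower are not drawn, and polyamine genes split, with *Srm* reddest in LM1 and *Sat1* in LM9.

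Of 24 genes that act upstream of *Nos2*, 11 were called in LM1 against HR1 (9 higher, 2 lower), 13 in LM9 against HR1 (9 higher, 4 lower) and 6 in LM9 against LM1 (5 higher, 1 lower). The shares were 45.8%, 54.2% and 25%, beside 35.5%, 42.3% and 22% of all genes, and the median log2 fold changes 0.29, 0.35 and 0.03. Without HR1 replicate 1 the counts were 14, 16 and 10 (58.3%, 66.7% and 41.7%, beside 52.8%, 55.7% and 45.5%). *Irf1*, an interferon factor that activates the *Nos2* gene directly, rose by 1.59 ± 0.16 in LM9 against HR1 (edgeR adjusted p = 0.000206) and was at 1.72 without HR1 replicate 1, with 62.8 to 81.7 CPM in HR1 and 195 to 217 in LM9. The 4 genes called lower in LM9 than in HR1 were *Irf8* (-2.03), an interferon factor of myeloid cells, and the receptor genes *Ifngr2* (-0.56), *Il1r1* (-0.72) and *Tnfrsf1a* (-0.58) for interferon-gamma, interleukin-1 and TNF. With HR1 replicate 1 left out these were -1.93, -0.71, -0.72 and -0.51, and the call of *Ifngr2* was lost in 9 of 17 alternatives.

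*Tnf* encodes a cytokine that activates NF-kB. Its level was 0.978 to 1.46 CPM in HR1, 2.97 to 4.48 in LM1 and 30.2, 48.6 and 28.0 in LM9. It rose by 4.84 ± 0.32 in LM9 against HR1 and by 3.32 ± 0.30 in LM9 against LM1 (edgeR adjusted p = 3.38e-05 and 0.000491). *Nfkbiz*, an inducible NF-kB cofactor, rose by 2.17 ± 0.31 in LM1 and 3.59 ± 0.33 in LM9 against HR1 (edgeR adjusted p = 0.00127 and 0.00014). *Nfkbia*, the inhibitor that NF-kB itself induces, rose by 2.06 ± 0.24 in LM1 against HR1 (edgeR adjusted p = 0.000487) and was at 336 to 517 CPM in the LM tumours. *Ikbkb*, a kinase of this pathway, was 0.82 higher in LM9 than in LM1 (edgeR adjusted p = 0.0115), a call lost in 3 of 17 alternatives. The gene called lower in LM9 than in LM1 was the NF-kB subunit *Relb* (-0.56, edgeR adjusted p = 0.0185, lost in 5 of 17 alternatives), which had risen by 0.53 in LM1 against HR1 (edgeR adjusted p = 0.0139, lost in 2 of 17). The subunit genes *Nfkb1* and *Nfkb2* were called in none of the 3 comparisons, with edgeR adjusted p from 0.0541 to 0.4 and from 0.0937 to 0.431. With HR1 replicate 1 left out, *Nfkb2* passed in LM1 against HR1 (0.61, edgeR adjusted p = 0.0386) and in LM9 against LM1 (-0.57, edgeR adjusted p = 0.0365), and *Nfkb1* did not pass. *Hif1a*, the oxygen-regulated activator, rose by 1.68 ± 0.18 in LM1 against HR1 (edgeR adjusted p = 0.00039) and had 243 to 269 CPM in LM9 against 297 to 359 in LM1. The 2 genes called lower in LM1 than in HR1 were the NF-kB subunit *Rela* (-0.45, edgeR adjusted p = 0.0498) and the kinase *Jak2* (-1.18, edgeR adjusted p = 0.0198). These calls were lost in 13 and 4 of 17 alternatives. Without HR1 replicate 1, the values against HR1 were 4.86 for *Tnf* in LM9, 2.27 and 3.69 for *Nfkbiz*, and, in LM1, 1.98 for *Nfkbia*, 1.54 for *Hif1a*, -0.59 for *Rela* and -1.48 for *Jak2*.

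By the Pearson correlation of log2(CPM + 0.5) over the 9 tumours, the 5 genes most like *Nos2* among 12377 were *Tead4* (0.994), *Il18r1* (0.992), *Ifi44* (0.992), *Trim25* (0.992) and *Oasl1* (0.992). *Ifi44*, *Trim25* and *Oasl1* are interferon-stimulated genes, *Il18r1* encodes a receptor chain for interleukin-18, and *Tead4* is a transcription factor of the Hippo pathway. Of the other 5 genes, *Slc7a2* came nearest at 0.842, followed by *Slc7a1* at 0.769, *Asl* at 0.642, *Odc1* at 0.471 and *Ass1* at 0.330. Among the genes compared these ranked 1194, 1844, 2857, 3930 and 4681, so many genes were more like *Nos2*. These values describe 9 points that fall into 3 models, and no test was made of them.

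The labelled cell type was compared with marker genes. *Epcam* and *Cdh1*, which define epithelial cells, were at most 4.49 and 1.20 CPM, and the 7 epithelial markers summed to 7.78 to 121 CPM in HR1, 158 to 182 in LM1 and 15.1 to 18.9 in LM9, of which *Krt14* gave 152 to 175 CPM in LM1 and 1.56 CPM in HR1 replicate 1. Fibroblast markers summed to 23424 to 35254 CPM in HR1, 10404 to 13828 in LM1 and 8976 to 10546 in LM9, and 9 of 10 were called lower in LM9 than in HR1. Leukocyte and macrophage markers, whose cells could carry *Nos2*, summed to 259.5 to 1185 CPM over 15 genes in HR1, 199 to 227 in LM1 and 191 to 235 in LM9, so LM1 and LM9 overlapped. *Cd68* was at 107 to 138 CPM in LM9 against 15.9 to 17.9 in LM1, and the other 14 summed to 218 to 1063 CPM in HR1, 182 to 211 in LM1 and 55.8 to 98.4 in LM9. Of the 15, 10 were called lower in LM1 and 11 lower in LM9 than in HR1, and none higher, and without HR1 replicate 1 these were 9 and 11. In LM9 against LM1, 3 were called lower (*C1qa*, *C1qb* and *C1qc*, each lost in 8 of 17 alternatives) and 1, *Cd68*, higher. Without HR1 replicate 1, 5 were called lower and 1 higher. *C1qa* fell from 43.3 to 217 CPM in HR1 to 6.73 to 13.2 in LM9, and *Ptprc*, the pan-leukocyte gene, was at 2.29 to 11.3 CPM in every tumour. The 7 endothelial markers summed to 5.56 to 29.7 CPM in HR1, 164 to 227 in LM1 and 253 to 291 in LM9, of which *Cdh5* and *Kdr* were called higher in both LM models than in HR1. *Pecam1*, *Emcn* and *Tie1* were called lower in LM9 than in HR1 (lost in 2 of 17 alternatives for *Pecam1* and in 8 of 16 for *Tie1*), and *Pecam1* stayed at or below 6.42 CPM. The part of these cell types in the levels of *Nos2* and the other 5 genes was not tested.

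**Figure D5:**
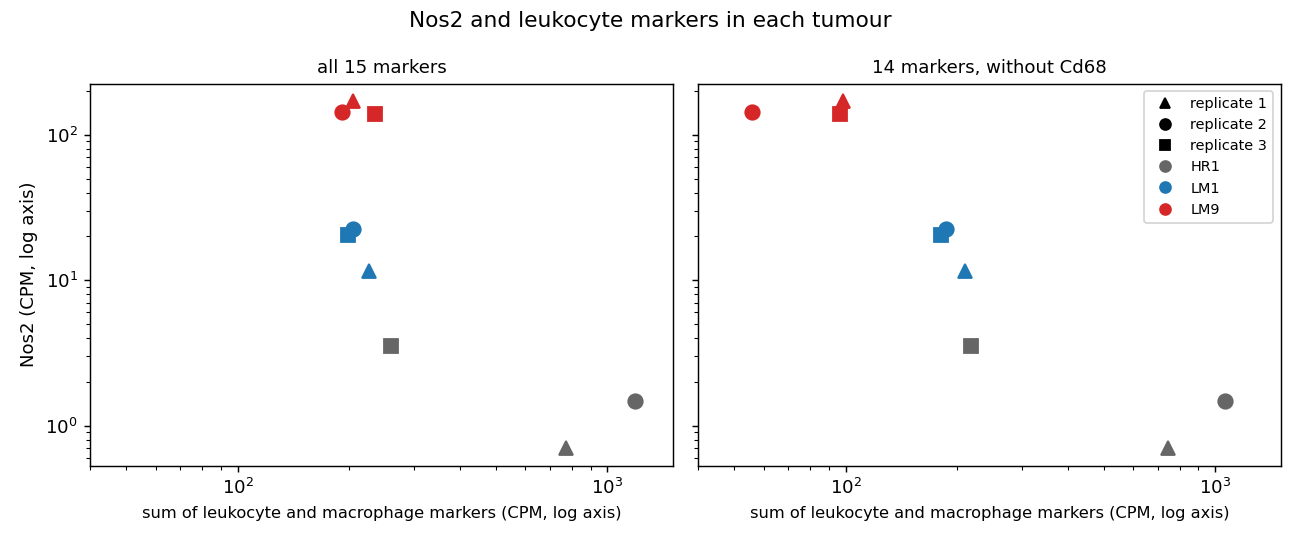
*Nos2* (CPM, log axis) against the summed leukocyte and macrophage markers (CPM, log axis) in each tumour, with all 15 markers on the left and without *Cd68* on the right, coloured by model and shaped by replicate. On the left LM1 (199 to 227 CPM) and LM9 (191 to 235 CPM) overlap in markers, on the right LM9 lies at 55.8 to 98.4 CPM and LM1 at 182 to 211, and HR1 has the highest sums in both.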

How the data were processed

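Poly(A) RNA of GFP+ cells sorted from 9 tumours was sequenced as stranded single-end libraries. The authors aligned reads to mm10 with STAR and counted read 5′ ends over the union of each gene's exons with qCount of QuasR. The deposited values are raw counts per Entrez gene for each tumour. The study's differential test was limma-voom. Software versions, the strand setting of the counting, and any filter on low counts are not given in the sources used here.

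Entrez identifiers were matched to symbols with a RefSeq GRCm38.p6 table (14085 of 14108 matched), and coordinates and exon lengths came from GENCODE M21 on the same build. Counts were fitted in edgeR 4.0.16 (R 4.3.3) with TMM factors (0.928 to 1.05), filterByExpr (14086 genes kept, 22 left out) and the robust quasi-likelihood F-test in 1 model over the 3 groups. P-values were adjusted by Benjamini-Hochberg over all genes tested, with a threshold of 0.05. Means and SD were taken on TMM-scaled CPM, RPKM on the same scale per kilobase of exon, and correlations on log2(CPM + 0.5). Alternatives were other scalings and filters, DESeq2 1.42.0, limma-voom (limma 3.58.1), a replicate block, fits of only the 6 tumours compared, and leaving out each tumour. Replicates of a group differed by more than sampling noise.

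The members and gene lists were chosen with earlier results of these data known. Besides the members, up to 4 genes of each list were named per comparison, those with the smallest adjusted p and a mean of at least 1 CPM, with the 5 genes most like *Nos2*, and *Nos1*, *Nos3* and *Otc* whatever their values. Some genes that the lists or this rule hold, 1 of the 7 members among them, are not reported here. *Slc7a6*, *Spr*, *Padi2*, *Padi4*, *Azin1*, *Rela*, *Relb*, *Nfkb1*, *Nfkb2*, *Jak2*, *Irf8*, *Ifngr2*, *Il1r1*, *Tnfrsf1a* and the marker genes named were added after their values were seen.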

Additional observations from a re-analysis of the deposited data

How the results depend on the processing

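Over 17 alternatives, *Nos2* kept its direction in all 3 comparisons. Leaving out 1 tumour at a time gave log2 fold changes of 2.89 to 4.03 for LM1 against HR1 and 5.94 to 7.09 for LM9 against HR1, with both ends set by HR1 replicates 1 and 3. The pathway calls moved more. In LM1 against HR1 the 19 calls ranged from 12 (without LM1 replicate 2) to 29 (without HR1 replicate 1), and in LM9 against HR1 the 29 calls from 19 (without LM9 replicate 2) to 35. In LM9 against LM1 the 10 calls ranged from 3 (without LM9 replicate 3) to 21 (without HR1 replicate 1), with 6 without LM1 replicate 2 and 4 without any other LM tumour, and rose to 28 with only the 6 tumours compared. The regulator calls were 7 in place of 11 for LM1 against HR1 with only those 6 tumours. For LM9 against LM1 they were 13 in place of 6 with only those 6 tumours, 2 to 10 with 1 tumour left out, 10 without HR1 replicate 1, 2 without LM1 replicate 1 or 3 and 3 without LM9 replicate 1 or 2. The cause was not tested. Over all genes, calls in LM9 against LM1 were 3102, against 7709 with only the 6 tumours, 6413 without HR1 replicate 1 and 1150 without LM1 replicate 1. Samples with the same replicate number did not deviate together throughout (correlations of -0.114 to 0.296, the highest for replicate 3 of LM9 and LM1). Whether the numbers mark a shared batch cannot be told from these values, and the main fit used no pairing. With the replicate block the pathway calls were 16, 25 and 7 and the regulator calls 9, 13 and 5, in the order LM1 against HR1, LM9 against HR1 and LM9 against LM1, and the *Nos2* values 3.36, 6.52 and 3.16. Depth limits *Nos2* in HR1, where it had 21 to 136 reads.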

Other observations

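The 13 tested genes within 500 kb of *Nos2* were looked at after its values were seen. Their log2 fold changes ran from -1.21 to 0.71 in LM1 against HR1, from -1.72 to 1.20 in LM9 against HR1 and from -1.04 to 1.31 in LM9 against LM1, with medians of -0.22, -0.16 and -0.04. None came near the values of *Nos2* itself. The nearest 3 on its 3′ side, *Lgals9*, *Ksr1* and *Wsb1*, had log2 fold changes of 1.04, 1.31 and 1.08 in LM9 against LM1, and 1.16, 0.50 and 1.20 in LM9 against HR1. In LM1 against HR1 these were 0.12, -0.81 and 0.12. *Lgals9* encodes galectin-9, which interferons are known to induce.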
